A study of Mus musculus with 30 samples.

Results

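The genes described here are 10 receptors, or receptor partners, that start or restrain responses of myeloid cells to antibody, sialic acid and self signals. They were taken by symbol from the 36528 gene identifiers in the count tables, and all 10 were found there. They are the activating Fc gamma receptors Fcgr1 and Fcgr3 with their shared signalling chain Fcer1g, the inhibitory Fc receptor Fcgr2b, the inhibitory immunoglobulin-like receptors Lilrb4a and Pirb, the sialic acid-binding lectins Cd33 and Cd22, and Sirpa with its ligand Cd47.

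RNA was sequenced from cells sorted from the brains of 11.5 month old PS2APP mice, which carry transgenes for human presenilin 2 and human amyloid precursor protein, and from non-transgenic (non-Tg) littermates that carry neither. In this line the transgenes are driven by the prion protein and Thy1 promoters, which are most active in neurons. Cells were sorted as Cd11b+ (myeloid cells), Gfap+ (astrocytes) or NeuN+ (neurons), giving 6 groups of 5 libraries each: non-Tg myeloid, PS2APP myeloid, non-Tg astrocyte, PS2APP astrocyte, non-Tg neuron and PS2APP neuron. The labels tie no library to an animal and do not tell whether animals were pooled, so the p-values below measure the spread between these libraries only. The labels also give no batch or sex. The myeloid and neuron libraries carry another series of sample identifiers than the astrocyte libraries. Where astrocyte libraries are compared with another population, series and population therefore cannot be told apart.

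Fc receptors bind the constant part of antibodies. Activating Fc receptors signal through an immunoreceptor tyrosine-based activation motif (ITAM), carried here by the Fcer1g chain, which recruits the kinase Syk and drives phagocytosis. Inhibitory receptors carry an inhibition motif (ITIM) that recruits phosphatases such as Ptpn6 and Inpp5d. Sirpa delivers such a signal when it meets Cd47 on another cell, which restrains engulfment of that cell, and microglia, the resident macrophages of the brain, carry most of these receptors.

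Libraries held between 2015535 and 6749681 counts, and PS2APP myeloid libraries were the shallowest (2015535 to 2908222, against 3578249 to 6143018 in non-Tg myeloid libraries). Itgam, the gene of Cd11b, stood, in counts scaled to an equal library total (CPM), at 861 to 1911 in the myeloid libraries and at 1.61 to 22.7 in the others, Gfap at 442 to 1548 CPM in the astrocyte libraries and at most 172 elsewhere, and Rbfox3, the gene of NeuN, at 88.6 to 244 CPM in the neuron libraries and at most 27.1 elsewhere. One PS2APP library of each population stood apart from its group in Arhgap6, a gene far higher in PS2APP than in non-Tg libraries. It held 10.1 CPM in PS2APP myeloid replicate 4, against 329 to 588 in the rest of that group. PS2APP astrocyte replicate 3 had 4.07 CPM against 83.0 to 242, and PS2APP neuron replicate 5 had 51.0 CPM against 239 to 755. The corresponding non-Tg libraries held 3.66 to 9.28, 7.48 to 16.1 and 41.2 to 53.6 CPM, so that these 3 libraries, labelled PS2APP, lie within or near the non-Tg range for this gene, and results that rest on them are given with and without them.

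Pairs of these genes are near copies of each other, and the sequences show where. A stretch of the coding sequence of Fcgr2b and Fcgr3, neighbours on chromosome 1, is identical over 129 bases although one receptor inhibits and the other activates. The same holds over 126 bases for Lilrb4a and its neighbour Lilr4b on chromosome 10. The identical run is in capitals, with 20 bases on either side in lower case, from GENCODE M21 transcripts on GRCm38.
Fcgr2b: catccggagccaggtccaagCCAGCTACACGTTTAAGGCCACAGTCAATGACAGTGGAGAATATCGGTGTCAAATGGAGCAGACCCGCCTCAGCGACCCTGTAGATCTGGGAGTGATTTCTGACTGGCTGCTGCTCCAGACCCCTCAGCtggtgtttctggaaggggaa
Fcgr3: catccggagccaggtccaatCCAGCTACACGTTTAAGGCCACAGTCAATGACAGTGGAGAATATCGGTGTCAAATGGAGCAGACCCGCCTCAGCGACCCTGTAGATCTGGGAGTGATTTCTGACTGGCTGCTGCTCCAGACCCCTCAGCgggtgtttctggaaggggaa
Lilrb4a: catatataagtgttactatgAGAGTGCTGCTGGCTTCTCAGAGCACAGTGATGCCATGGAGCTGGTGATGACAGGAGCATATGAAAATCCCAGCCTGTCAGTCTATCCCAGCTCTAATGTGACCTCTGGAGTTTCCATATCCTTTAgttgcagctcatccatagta
Lilr4b: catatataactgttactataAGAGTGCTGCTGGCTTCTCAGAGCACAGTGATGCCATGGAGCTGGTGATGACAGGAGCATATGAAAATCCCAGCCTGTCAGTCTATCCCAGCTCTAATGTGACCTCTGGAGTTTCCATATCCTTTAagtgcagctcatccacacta
Of the 50-base windows of the Fcgr3 transcript, 12.8% (166 of 1298) also occur in Fcgr2b, and of those of Lilrb4a, 27.8% (370 of 1332) also occur in Lilr4b. A further gene model, Gm49339, spans the loci of Lilr4b and Lilrb4a and holds every window of Lilrb4a. For Pirb, 37.3% of windows occur in some other gene, 20.7% of them all in Pira2, an activating receptor of the same family. Of the windows of Fcgr2b 12.5%, and of Cd22 10.3%, occur in some other gene, those of Cd22 mostly in the gene model Gm29439. No window of Fcgr1, Fcer1g, Cd33, Sirpa or Cd47 was shared with another gene. The Cd47 transcript searched has 1032 bases, 1029 of them coding, so untranslated parts of Cd47 were hardly searched. The deposited counts take only reads that align to one place, so the levels of Fcgr2b, Fcgr3, Lilrb4a, Pirb and Cd22 are less certain than those of Fcgr1, Fcer1g, Cd33 and Sirpa. The annotation used for counting was not given in the sources used here.

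Promoters were searched for the purine-rich box GAGGAAG, the core of binding sites of PU.1, a transcription factor of myeloid cells, on both strands (CTTCCTC on the other). RefSeq lists a promoter window, 250 bases before to 50 after a gene start on GRCm38.p6, for 8 of the 10 members, and 4 of these, Cd33, Fcgr1, Fcgr3 and Pirb, hold the box. It is present in 13.6% of all 32851 listed promoters. The windows of the activating Fc receptors and of Cd33, whose levels are described below, are shown with the box in capitals; all lie on the minus strand, at chr3:96293920-96294219, chr1:171059345-171059644 and chr7:43533122-43533421.
Fcgr1: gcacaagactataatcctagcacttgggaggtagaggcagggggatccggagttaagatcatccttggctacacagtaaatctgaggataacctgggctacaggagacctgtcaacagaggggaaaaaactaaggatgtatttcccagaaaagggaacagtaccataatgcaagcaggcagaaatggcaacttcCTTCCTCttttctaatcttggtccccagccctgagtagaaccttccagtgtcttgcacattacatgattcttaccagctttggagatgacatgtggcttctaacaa
Fcgr3: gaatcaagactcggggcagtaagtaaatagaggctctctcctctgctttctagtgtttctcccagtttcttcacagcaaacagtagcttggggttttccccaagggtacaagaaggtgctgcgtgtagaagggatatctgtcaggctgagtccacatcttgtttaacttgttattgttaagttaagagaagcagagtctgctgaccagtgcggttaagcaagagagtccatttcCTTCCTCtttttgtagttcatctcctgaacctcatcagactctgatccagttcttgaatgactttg
Cd33: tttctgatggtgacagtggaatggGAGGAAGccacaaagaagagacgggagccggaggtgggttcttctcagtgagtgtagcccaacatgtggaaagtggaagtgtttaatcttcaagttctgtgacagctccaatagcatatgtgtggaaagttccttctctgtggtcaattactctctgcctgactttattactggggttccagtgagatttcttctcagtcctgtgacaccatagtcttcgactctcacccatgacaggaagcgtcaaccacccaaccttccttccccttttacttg
The box begins 56, 16 and 226 bases before the start of Fcgr1, Fcgr3 and Cd33, respectively. A match is a string of letters and not a measured binding site.

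The first question was where in the brain these genes are read, and it was read from the non-Tg libraries. Of the 10 members, 9 were higher in myeloid than in astrocyte libraries and the same 9 were higher in myeloid than in neuron libraries, whereas Cd47 was lower in both comparisons (edgeR quasi-likelihood test, Benjamini-Hochberg adjusted p under 0.05). Among all 18101 genes tested, 57.4% differed between myeloid and astrocyte libraries, 26.8% being higher and 30.7% lower in myeloid libraries, and 67.9% differed between myeloid and neuron libraries, 34.1% being higher and 33.7% lower. The median log2 fold change over the members was 6.90 against astrocyte libraries, or 6.71 with the 2 members at 1 to 3 counts placed at the lower end of their counting interval, and 7.02 against neuron libraries. Over all genes the medians were -0.11 and 0.03. The members thus fall into 3 patterns: 8 receptors nearly absent outside the myeloid sort, Sirpa graded over the 3 sorts, and Cd47 lowest in the myeloid sort.

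**Figure D1:**
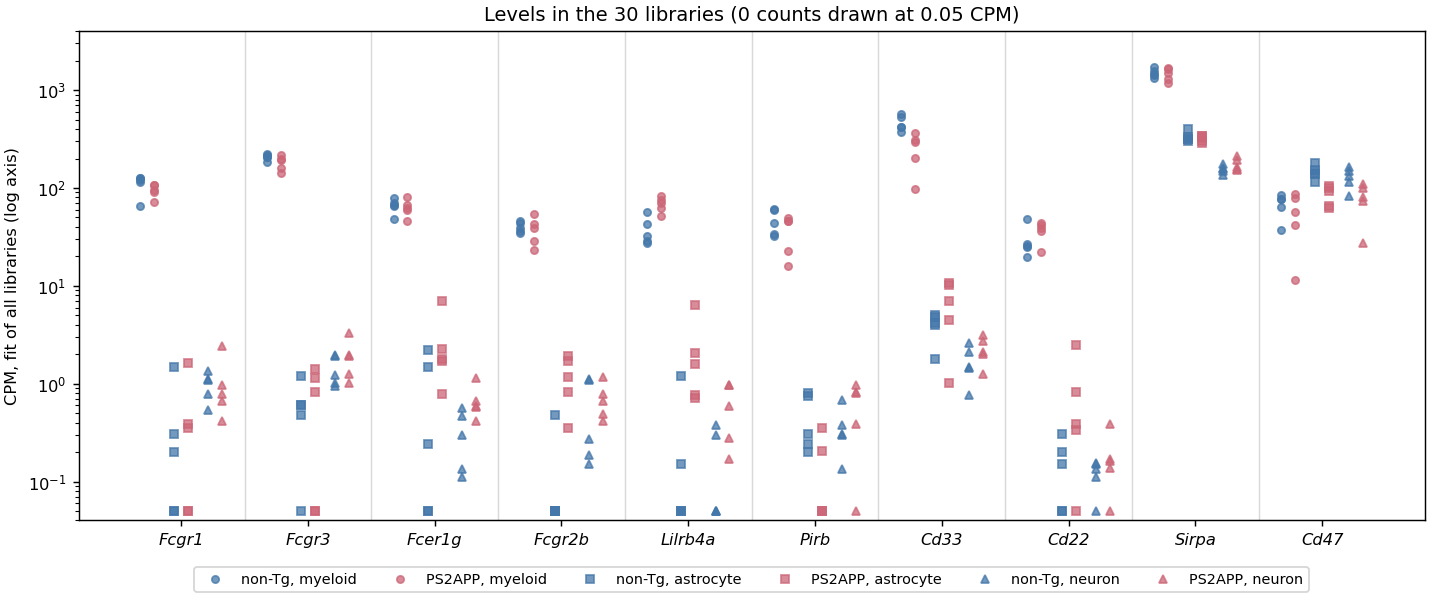
CPM of each gene in each of the 30 libraries on a log axis, by population (symbol) and genotype (colour), with libraries at 0 counts drawn at 0.05 CPM. The 8 other receptors drop by orders of magnitude outside the myeloid libraries, Sirpa steps down from 1501 to 334 to 156 CPM (non-Tg means), and Cd47 is higher in astrocyte and neuron than in myeloid libraries.

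Per length, the members spanned a wide range in the non-Tg myeloid libraries. On the deposited RPKM scale (reads scaled by gene length and depth), Sirpa was highest at 88.2 ± 8.32 (SD, n = 5), rank 57 of all genes, followed by Cd33 at 39.3 ± 6.59, Fcgr3 at 30.03 ± 1.82, Fcer1g at 19.3 ± 3.33 and Fcgr1 at 11.9 ± 2.80. From Sirpa down to Fcgr1, the 5 libraries of each gene did not overlap with those of the next of these genes, although Cd33 and Fcgr3 came close (lowest 31.7 and highest 31.6). Below them, Lilrb4a (6.96 ± 2.21), Fcgr2b (6.94 ± 0.732), Pirb (4.23 ± 1.32), Cd47 (3.23 ± 0.873) and Cd22 (1.69 ± 0.653) followed. The libraries of neighbours in this lower order overlapped, from Fcgr1 with Lilrb4a to Cd47 with Cd22, except that those of Fcgr2b (lowest 6.06) lay above those of Pirb (highest 5.62). The inhibitory Fcgr2b reached 16.2% ± 2.85 of the summed RPKM of the activating receptors Fcgr1, Fcgr3 and Fcgr4 in non-Tg and 17.0% ± 5.23 in PS2APP myeloid libraries, and the libraries overlapped.

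The comparison of PS2APP with non-Tg myeloid libraries asked whether these genes differ in mice that carry the transgenes. All 10 members passed the filter on low counts, 1 was called higher and 1 lower, and 3.36% of the 12274 genes tested were called, 1.86% higher and 1.5% lower. The member log2 fold changes had a median of -0.07, 4 being above and 6 below 0, and the median of all genes was -0.0021. Lilrb4a rose and Cd33 fell, and both calls were close to the threshold. In bulk libraries such as these, fewer cells of a type and less RNA per cell cannot be told apart.

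**Figure D2:**
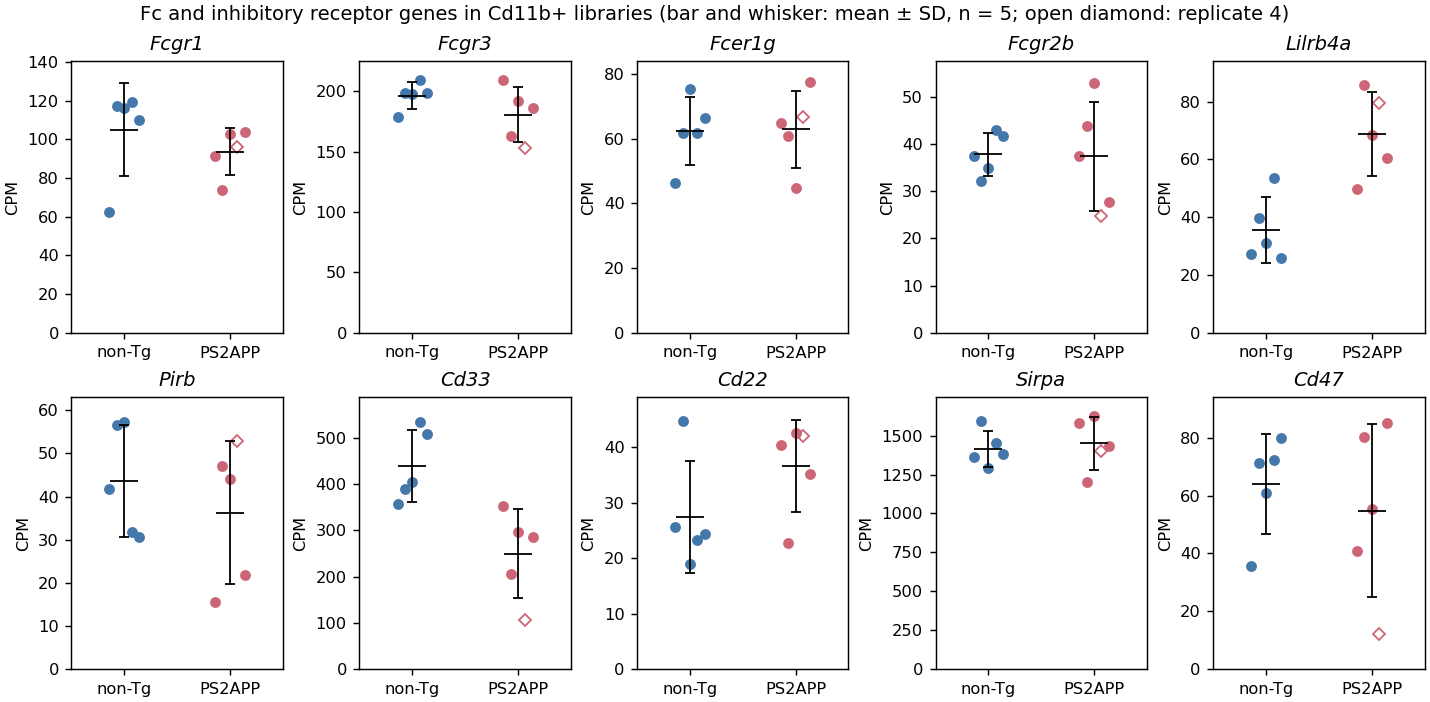
CPM of each gene in the 5 non-Tg and 5 PS2APP myeloid libraries (points), with the mean and SD of each group as bar and whisker; the open diamond is PS2APP myeloid replicate 4, which is low in Arhgap6. Cd33 is lower in PS2APP libraries without overlap. Lilrb4a has a higher mean in PS2APP libraries, but its groups overlap, as do those of the other 8 genes.

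Fcgr1, the high-affinity receptor for immunoglobulin G (gene 14129, chr3:96282909-96293969), held 62.4, 117, 116, 119 and 109.9 CPM in non-Tg myeloid replicates 1 to 5 and 91.4, 74.0, 103, 96.1 and 104 CPM in PS2APP myeloid replicates 1 to 5. Non-Tg replicate 1 was the lowest of all 10, the other 4 non-Tg libraries were above every PS2APP library, and the groups overlapped through that library. The log2 fold change was -0.16 ± 0.19 (SE; edgeR adjusted p = 0.67), and it was -0.30 without non-Tg myeloid replicate 1. In astrocyte libraries Fcgr1 gave 0, 1, 1, 10 and 0 counts in non-Tg and 1, 1, 0, 8 and 0 in PS2APP libraries, with 10 and 8 of these in replicate 4 of either genotype.

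Fcgr3, a low-affinity activating receptor (gene 14131, chr1:171051169-171065915), held 178, 199, 197, 209 and 198 CPM in the non-Tg and 209, 163, 192, 153 and 186 CPM in the PS2APP myeloid libraries. Its values were the most even of the Fc receptors, and the groups overlapped (log2 fold change -0.12 ± 0.14, edgeR adjusted p = 0.70). It was -0.062 without PS2APP replicate 4. Of the Fc receptors among the 10 genes, it alone passed the filter on low counts in neuron libraries, where it held 1.13 to 2.36 CPM in the non-Tg and 1.20 to 4.004 CPM in the PS2APP libraries (0.38 ± 0.36, edgeR adjusted p = 0.52). These neuron levels were 0.677% of the myeloid level in non-Tg libraries.

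Fcer1g, the ITAM chain on which both activating receptors depend (gene 14127, chr1:171229572-171234349), held 46.3, 61.8, 75.2, 61.6 and 66.5 CPM in the non-Tg and 64.8, 60.8, 44.9, 66.8 and 77.6 CPM in the PS2APP myeloid libraries. The groups overlapped over nearly their whole range, and the log2 fold change was 0.02 ± 0.20 (edgeR adjusted p = 0.98). The ratio of its RPKM to the summed RPKM of Fcgr1, Fcgr3 and Fcgr4 was 0.444 ± 0.0510 in non-Tg and 0.485 ± 0.101 in PS2APP libraries. In astrocyte libraries its counts were 0, 11, 0, 10 and 1 in non-Tg and 5, 18, 5, 11 and 2 in PS2APP libraries.

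Fcgr2b, the only Fc gamma receptor with an inhibition motif (gene 14130, chr1:170960558-170976071), held 37.5, 32.0, 34.8, 42.8 and 41.7 CPM in the non-Tg and 37.4, 43.9, 52.8, 24.8 and 27.7 CPM in the PS2APP myeloid libraries. PS2APP libraries were spread on both sides of the non-Tg range, with replicates 4 and 5 below it and replicates 2 and 3 above it. The log2 fold change was -0.01 ± 0.24 (edgeR adjusted p = 0.98), with a 95% interval from -0.49 to 0.46, and it was 0.10 without PS2APP myeloid replicate 4.

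Lilrb4a, an inhibitory receptor also known as gp49B (gene 14728, chr10:51490898-51496613), held 27.4, 39.6, 31.2, 53.5 and 26.0 CPM in the non-Tg and 49.8, 85.6, 68.4, 79.6 and 60.3 CPM in the PS2APP myeloid libraries. Of the PS2APP libraries, 4 were above every non-Tg library, and PS2APP replicate 1 lay below non-Tg replicate 4, the highest of its group. Lilrb4a rose from 35.5 ± 11.3 to 68.7 ± 14.4 CPM (SD, n = 5), a log2 fold change of 0.94 with an SE of 0.23 (edgeR adjusted p = 0.030). The rise was positive in all 10 fits that left out 1 library, 0.84 to 1.14, but passed the threshold in 5 of them (edgeR adjusted p from 0.020 to 0.091), being lost without PS2APP replicate 2, 3 or 4 or non-Tg replicate 3 or 5. It was also lost with the summed neuron markers as a covariate (edgeR adjusted p = 0.12) and in the fit of all 30 libraries (0.19).

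Lilrb4a was set beside its near copy. Lilr4b held 12.6, 22.8, 10.6, 19.9 and 16.9 CPM in the non-Tg and 9.26, 49.7, 14.4, 34.4 and 16.1 CPM in the PS2APP myeloid libraries, with PS2APP replicates 2 and 4 above and replicate 1 below the non-Tg range. The ratio of Lilrb4a to Lilr4b in RPKM was 2.19 ± 0.596 in non-Tg and 3.54 ± 1.54 in PS2APP libraries, and the groups overlapped. In astrocyte libraries Lilrb4a gave 0, 6, 0, 1 and 0 counts in non-Tg and 2, 2, 19, 10 and 4 in PS2APP libraries, of which 19 were in PS2APP astrocyte replicate 3, the library low in Arhgap6. In neuron libraries it gave 0, 0, 2, 2 and 0 and 3, 5, 6, 2 and 1 counts. It was too low to be tested in either population.

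Pirb, an inhibitory receptor for major histocompatibility class I molecules (gene 18733, chr7:3712505-3720382), held 41.7, 56.5, 57.4, 31.7 and 30.6 CPM in the non-Tg and 15.4, 47.0, 44.1, 52.8 and 21.7 CPM in the PS2APP myeloid libraries. PS2APP replicates 1 and 5 were below every non-Tg library and the other 3 within the non-Tg range, so the groups overlapped (log2 fold change -0.28 ± 0.30, edgeR adjusted p = 0.66). It was -0.44 without PS2APP replicate 4, low in Arhgap6, and -0.079 without PS2APP replicate 1. The ratio of Lilrb4a to Pirb in RPKM was 1.10 to 3.41 in non-Tg and 3.05 to 6.53 in PS2APP libraries, and the groups overlapped. In astrocyte libraries Pirb gave 1, 4, 1, 5 and 1 counts in non-Tg and 1, 0, 0, 1 and 0 in PS2APP libraries.

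Cd33, a sialic acid-binding lectin whose human counterpart lies at a risk locus for Alzheimer's disease (gene 12489, chr7:43527399-43537424), held 356, 389, 404, 533 and 508 CPM in the non-Tg and 352, 206, 297, 105 and 286 CPM in the PS2APP myeloid libraries. The groups did not overlap, which was true, in this direction, of 2.71% of the genes tested, and the highest PS2APP library was just below the lowest non-Tg library. Cd33 fell from 438 ± 77.8 to 249 ± 96.1 CPM (SD, n = 5), a log2 fold change of -0.81 with an SE of 0.22 (edgeR adjusted p = 0.046). PS2APP replicate 4 was the lowest of all, and without it the log2 fold change was -0.61 (edgeR adjusted p = 0.071). The value stayed below 0 in all 10 fits that left out 1 library, -0.96 to -0.61, and passed the threshold in 2 of them, those without replicate 1 of either genotype (edgeR adjusted p from 0.032 to 0.14 over the 10). With the neuron markers as a covariate the edgeR adjusted p was 0.12, in the fit of all 30 libraries 0.070 and with a stricter filter 0.059.

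Relative to Sirpa, Cd33 stood at 0.353 to 0.531 of its RPKM in non-Tg myeloid libraries and at 0.108 to 0.321 in PS2APP libraries, without overlap. In astrocyte libraries Cd33 held 3.65, 4.13, 3.47, 1.56 and 4.3999 CPM in the non-Tg and 9.39, 6.02, 0.911, 3.93 and 8.96 CPM in the PS2APP libraries, where replicate 3 was the lowest and 3 libraries were above every non-Tg library (log2 fold change 0.76 ± 0.54, edgeR adjusted p = 0.48). The difference between the log2 fold changes of Cd33 in myeloid and astrocyte libraries was -1.61 ± 0.49 (edgeR adjusted p = 0.11), and it passed the threshold without PS2APP astrocyte replicate 3 (-1.86, edgeR adjusted p = 0.032) and without all 3 libraries low in Arhgap6 (-1.64, edgeR adjusted p = 0.033). In neuron libraries Cd33 held 0.921 to 3.16 CPM in the non-Tg and 1.47 to 3.75 CPM in the PS2APP libraries (0.39 ± 0.34, edgeR adjusted p = 0.48).

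Cd22, a lectin with inhibition motifs best known from B cells (gene 12483, chr7:30865404-30880342), held 25.6, 44.8, 18.9, 23.3 and 24.4 CPM in the non-Tg and 40.5, 22.7, 42.6, 42.0 and 35.2 CPM in the PS2APP myeloid libraries. Non-Tg replicate 2 was the highest of all 10 libraries and PS2APP replicate 2 lay among the lower non-Tg libraries, while the other 4 PS2APP libraries were above the other 4 non-Tg libraries. The log2 fold change was 0.41 ± 0.27 (edgeR adjusted p = 0.43), and 0.67 without non-Tg replicate 2. Of the 6 B cell markers measured, 5 had a read in non-Tg and 2 in PS2APP myeloid libraries, with a sum of 4.63 to 14.9 CPM and 1.19 to 9.95 CPM. Cd79a, Ms4a1 and Blk were at 0 in all PS2APP myeloid libraries, in which Cd22 stood at 22.7 to 42.6 CPM.

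Sirpa, the inhibitory receptor for Cd47 (gene 19261, chr2:129591042-129632228), held 1362, 1595, 1291, 1452 and 1382 CPM in the non-Tg and 1585, 1201, 1627, 1402 and 1436 CPM in the PS2APP myeloid libraries. The PS2APP libraries lay on both sides of the non-Tg range, and the log2 fold change was 0.03 ± 0.14 (edgeR adjusted p = 0.92), with a 95% interval from -0.23 to 0.30. The other sorts were compared on their own scales. Astrocyte libraries held 346, 288, 262, 277 and 275 CPM in the non-Tg and 282, 294, 269, 252 and 295 CPM in the PS2APP libraries (-0.06 ± 0.14, edgeR adjusted p = 0.87). Neuron libraries held 193, 214, 161, 181 and 186 CPM in the non-Tg and 197, 187, 228, 180.3 and 252 CPM in the PS2APP libraries (0.16 ± 0.13, edgeR adjusted p = 0.43). All 3 comparisons of genotype had overlapping groups.

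On the common scale of all 30 libraries, Sirpa stood at 1501 ± 151 CPM in non-Tg myeloid, 334 ± 38.9 in non-Tg astrocyte and 156 ± 16.01 in non-Tg neuron libraries, and no 2 of these groups overlapped. The log2 difference was 2.17 ± 0.14 between myeloid and astrocyte libraries (edgeR adjusted p = 1.1e-15) and 3.27 ± 0.15 between myeloid and neuron libraries (edgeR adjusted p = 3.5e-20). Sirpa was also higher in astrocyte than in neuron libraries, by 1.10 ± 0.14 (edgeR adjusted p = 1.8e-08). In that last comparison 51.7% of all genes were called (26.9% higher and 24.8% lower in astrocyte libraries), and 4 members were called, Sirpa and Cd33 higher in astrocyte libraries and Fcgr3 and Fcgr2b lower, the latter pair with 3 counts or fewer in at least 4 of the 5 non-Tg astrocyte libraries. DESeq2 also called Fcer1g, higher in astrocyte libraries, with 3 counts or fewer in 3 of the 5 non-Tg astrocyte and all 5 non-Tg neuron libraries. Fcgr2b and Fcer1g passed the filter on low counts in neither population on its own and entered this fit through their myeloid level. Fcgr3 passed that filter in neuron but not in astrocyte libraries. The calls of these genes rest on few counts and do not describe astrocytes against neurons.

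Cd47, the widely made ligand of Sirpa (gene 16423, chr16:49851328-49912503), had its lowest mean in the myeloid libraries, where Sirpa had its highest. On the common scale the non-Tg myeloid libraries held 37.0, 77.3, 63.4, 77.6 and 84.2 CPM, the non-Tg astrocyte libraries 115, 140.4, 141, 154 and 181 CPM and the non-Tg neuron libraries 83.4, 150.1, 163, 131 and 116 CPM. Every astrocyte library was above every myeloid library, and 1 neuron library overlapped with the myeloid range. Cd47 was lower in myeloid than in astrocyte libraries at a log2 difference of -1.10 ± 0.32 (edgeR adjusted p = 0.0031) and lower than in neuron libraries by -0.92 ± 0.31 (edgeR adjusted p = 0.010). Astrocyte and neuron libraries differed by 0.18 ± 0.31 (edgeR adjusted p = 0.65; 95% interval -0.43 to 0.79).

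**Figure D3:**
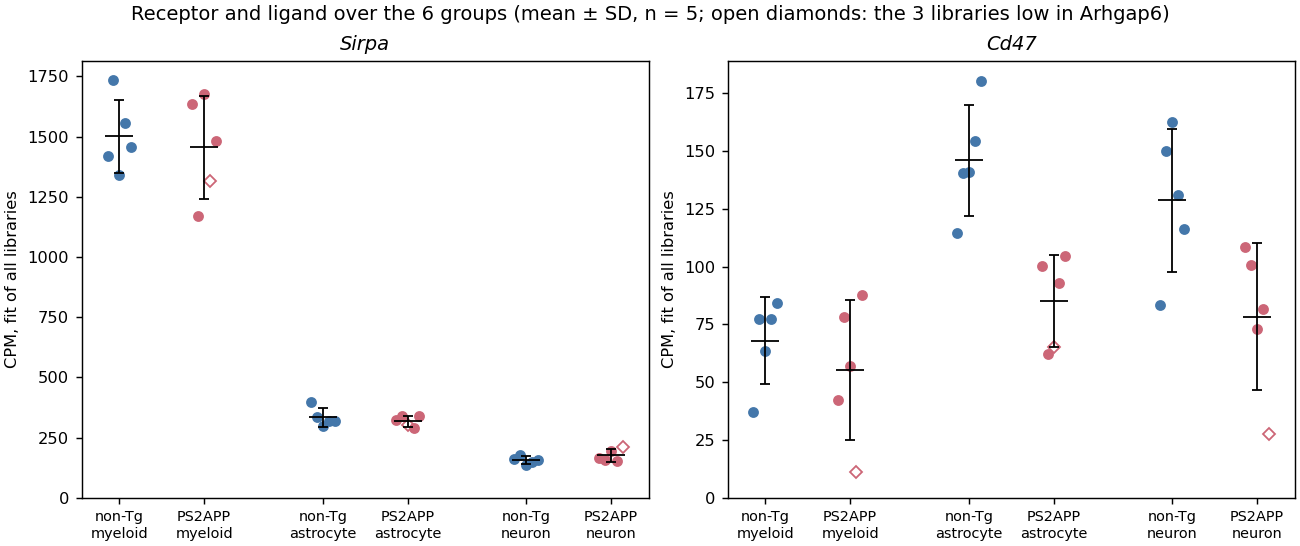
CPM of the receptor Sirpa and its ligand Cd47 in each library of the 6 groups, on the scale common to all 30 libraries and with axes from 0; bars and whiskers are mean and SD (n = 5), open diamonds the 3 libraries low in Arhgap6. Sirpa steps down from myeloid to astrocyte to neuron libraries, and Cd47 has lower means in PS2APP than in non-Tg libraries of each population, with PS2APP astrocyte libraries below all non-Tg astrocyte libraries.

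Between genotypes, Cd47 held 99.1, 121, 123, 134 and 157 CPM in the non-Tg and 87.9, 54.2, 58.3, 81.1 and 91.3 CPM in the PS2APP astrocyte libraries on the scale of that population. The groups did not overlap, which was true, in this direction, of 1.73% of the 14043 genes tested. Its mean was 127 ± 21.0 CPM in the non-Tg and 74.6 ± 17.2 CPM in the PS2APP libraries, and the log2 fold change, -0.77 ± 0.19, missed the threshold (edgeR adjusted p = 0.10). It passed with DESeq2 (adjusted p = 0.020), without a filter on low counts (edgeR adjusted p = 0.019) and without non-Tg astrocyte replicate 1 (edgeR adjusted p = 0.048), and did not pass in the other 9 fits that left out 1 library, where edgeR adjusted p reached 0.31.

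In neuron libraries Cd47 held 99.7, 180.2, 195, 158 and 139.9 CPM in the non-Tg and 130.4, 122, 85.7, 96.5 and 32.5 CPM in the PS2APP libraries. PS2APP replicate 5, low in Arhgap6, was the lowest, and the groups overlapped through non-Tg replicate 1. The log2 fold change was -0.73 ± 0.29 (edgeR adjusted p = 0.19), or -0.51 without PS2APP replicate 5, and the adjusted p was 0.010 with the summed microglia markers as a covariate, a fit that called 3094 genes against 1 without it.

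In myeloid libraries Cd47 held 35.5, 71.1, 61.0, 72.4 and 79.9 CPM in the non-Tg and 40.9, 80.3, 55.5, 12.1 and 85.1 CPM in the PS2APP libraries. PS2APP replicate 4 held 19 counts and was the lowest. The log2 fold change was -0.22 ± 0.32 (edgeR adjusted p = 0.76), and it turned to 0.03 without that library. The difference between the log2 fold changes of Cd47 in myeloid and astrocyte libraries was 0.49 ± 0.45 (edgeR adjusted p = 0.70), between myeloid and neuron libraries 0.43 ± 0.45 (0.81) and between astrocyte and neuron libraries -0.06 ± 0.44 (0.9999).

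The balance of receptor and ligand was described as the ratio of Sirpa to Cd47 in RPKM within each library. It was 21.3 to 47.4 in non-Tg myeloid libraries and 18.5 to 143 in PS2APP myeloid libraries, the highest being replicate 4. It was 2.17 to 4.31 in non-Tg and 3.84 to 6.69 in PS2APP astrocyte libraries, and 1.02 to 2.396 in non-Tg and 1.87 to 9.55 in PS2APP neuron libraries, the highest being replicate 5. Myeloid libraries thus held the receptor far above its ligand, and the neuron libraries held them at more similar levels.

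**Figure D4:**
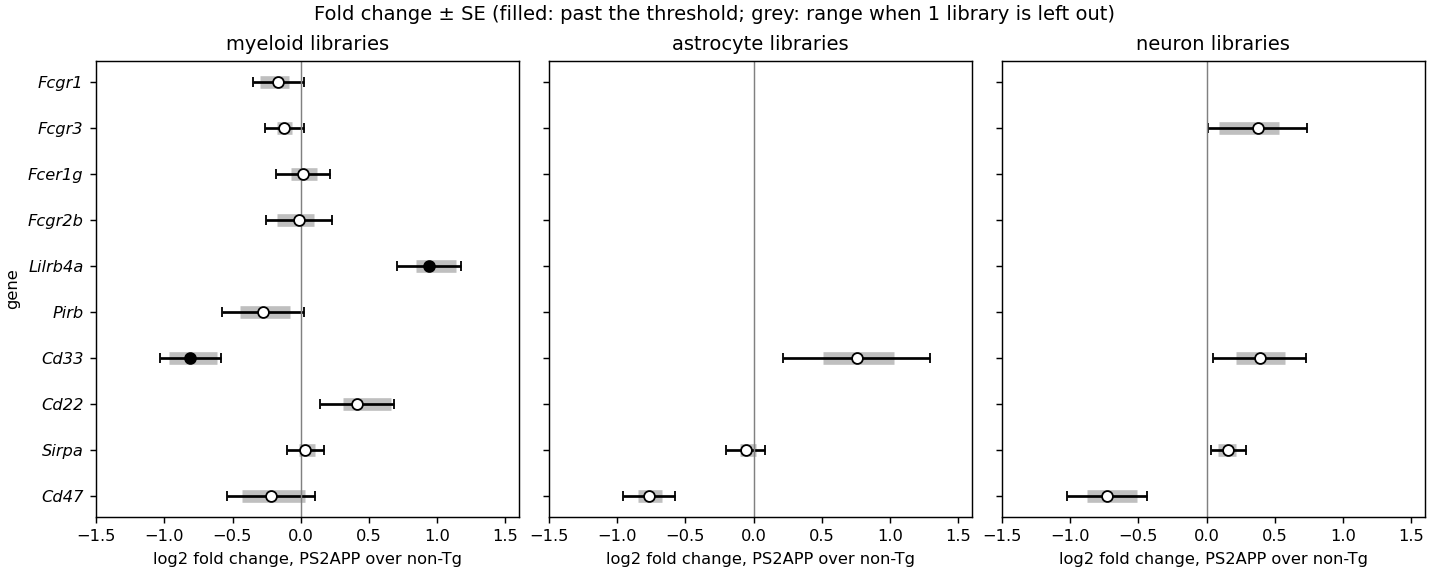
Log2 fold change of PS2APP over non-Tg libraries with its SE for each gene tested in each population (points; filled where past the threshold), over the range of values when 1 library is left out (grey). Lilrb4a (0.94) and Cd33 (-0.81) in myeloid libraries are the filled points, and Cd47 is below 0 in astrocyte (-0.77) and neuron (-0.73) libraries.

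Outside the myeloid sort most receptors were at the edge of detection. Of the 10 members, 3 passed the filter in astrocyte libraries and 4 in neuron libraries. None was called between genotypes in either, against 0.185% of the 14043 genes tested in astrocyte libraries and 0.00623% of the 16064 tested in neuron libraries. At an unadjusted p under 0.05, 1 of the 3 and 1 of the 4 passed, Cd47 in both. Among all genes 2415 of 14043 passed in astrocyte and 3671 of 16064 in neuron libraries. DESeq2 called Cd47 in astrocyte libraries and no member in neuron libraries, where it gave no adjusted p for Fcgr3 and Cd33, and limma-voom called none in either. The median log2 fold change of the tested members was -0.06 in astrocyte and 0.27 in neuron libraries, beside 0.01 and -0.02 over all genes.

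The 8 receptors other than Sirpa stood at 0.242% to 1.19% of their myeloid level in non-Tg astrocyte libraries and at 0.358% to 1.41% in non-Tg neuron libraries. The 10 microglia markers stood at 0.152% to 7.68% (median 0.548%) and 0.354% to 4.31% (median 0.463%) of theirs. The ranges of the 8 receptors thus lay within those of the microglia markers. Sirpa stood at 22.2% and 10.4%, above every microglia marker. For the rarest receptors the ratio rests on few reads: Fcgr2b gave 975 counts in non-Tg myeloid and 2 in non-Tg astrocyte libraries, a pooled ratio of 546 with a 95% counting interval of 151 to 4512, and Cd22 gave 727 and 3, a ratio of 271 (92.4 to 1318). A library with 3 counts corresponds to 0.444 to 1.49 CPM at these depths, and intervals and floors cover counting error only.

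**Figure D5:**
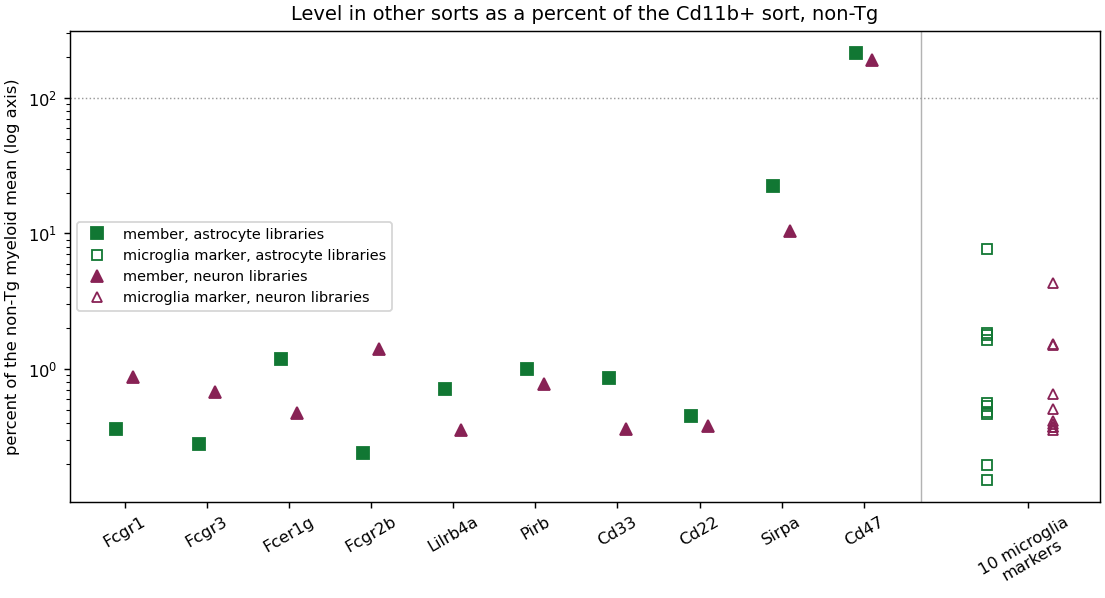
Level of each gene in non-Tg astrocyte (squares) and neuron (triangles) libraries as a percent of its level in non-Tg myeloid libraries, on a log axis, beside the 10 microglia markers (open symbols). The 8 receptors other than Sirpa lie at 0.242% to 1.41%, within the range of the microglia markers, Sirpa at 22.2% and 10.4% and Cd47 at 215% and 190%.

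Whether the PS2APP effect differed from one population to another was tested in the fit of all 30 libraries. Of the 10 members, 1 was called between myeloid and astrocyte libraries, against 0.757% of the 18101 genes tested (0.293% with the effect higher and 0.464% with it lower in myeloid libraries), and none between myeloid and neuron (0.105%) or astrocyte and neuron libraries (0.0331%), where DESeq2 called none either. At an unadjusted p under 0.05, 5, 1 and 2 members passed in these comparisons, beside 2350, 1746 and 900 of the 18101 genes tested. The 5 members were Fcgr2b, Cd33, Fcer1g, Cd22 and Lilrb4a, all with a lower effect in myeloid than in astrocyte libraries. The median difference was -1.09 over the members and -0.11 over all genes. Of the 10 members, only Cd33, Sirpa and Cd47 had passed the filter on low counts within astrocyte libraries, and of these 5 members Cd33 alone. The other members had few or no astrocyte counts and entered this fit through their myeloid level. The shared direction and the median therefore cannot describe the members as a set. With another scaling (DESeq2 size factors in edgeR) the genes called between myeloid and astrocyte libraries split into 61 higher and 55 lower, against 53 and 84. The member called was Fcgr2b (edgeR adjusted p = 0.039). Its astrocyte counts were 0, 0, 0, 0 and 2 in non-Tg and 1, 5, 5, 4 and 3 in PS2APP libraries, so that no fold change is given, and its myeloid level is described above. The call was lost with that scaling (edgeR adjusted p = 0.054), without the 3 libraries low in Arhgap6 (0.10) and in 10 of the 30 fits that left out 1 library (edgeR adjusted p up to 0.097). Those were the fits without non-Tg astrocyte replicate 1, 2, 3 or 4, PS2APP astrocyte replicate 2 or 3, or replicate 4 or 5 of either myeloid group. The summed microglia markers moved the same way, from 159.7 to 199.6 CPM in non-Tg to 226 to 287 CPM in PS2APP astrocyte libraries, all 10 having reads in both. Their part in the result was not tested.

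Marker sums also differed between the myeloid groups in which Lilrb4a and Cd33 were called. The microglia markers summed to 9065 to 10791 CPM in the non-Tg and 6194 to 8790 CPM in the PS2APP myeloid libraries, without overlap. All 10 had reads and a log2 fold change below 0. Of them 2, Tmem119 and Cx3cr1, were called by edgeR and 3 by DESeq2. An unadjusted p under 0.05 was found for 5 of the 10, beside 2375 of all 12274 genes tested. The neutrophil markers summed to 87.0 to 1291 and 25.5 to 812 CPM, and the monocyte markers to 65.8 to 108 and 28.6 to 142 CPM, of which Ccr2 fell. The oligodendrocyte markers summed to 674 to 1085 CPM in non-Tg and 1135 to 1761 CPM in PS2APP myeloid libraries, without overlap, and Mbp and Mobp rose. The neuron markers summed to 164 to 264 and 221 to 359 CPM, with 8 of 9 tested above 0 in log2 fold change and none called by edgeR (3 at an unadjusted p under 0.05; DESeq2 called 1). The astrocyte markers summed to 556 to 1077 and 622 to 989 CPM, of which Gfap rose from 16.9 ± 4.64 to 116 ± 38.3 CPM and Aqp4 fell from 17.8 ± 6.64 to 5.74 ± 1.75 CPM, and of the endothelial markers Flt1 rose. Mitochondrial genes took 8.75% ± 2.89 of counts in non-Tg and 13.5% ± 2.97 in PS2APP myeloid libraries. Of these shifts only the neuron marker sum was used as a covariate, in the fit given above in which both calls were lost. The part of the other shifts in the results for Lilrb4a and Cd33 was not tested.

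Related genes were read from 7 lists of 97 genes, 88 of them measured. In myeloid libraries none of 5 tested Fc receptors outside the members, none of 3 paired receptors and none of 6 other sialic acid-binding lectins was called by edgeR. At an unadjusted p under 0.05, 1, 0 and 1 of them passed, beside 2375 of all 12274 genes tested. DESeq2 called 1 lectin, and limma-voom called none of them. Their smallest p belonged to Fcgrt, the neonatal Fc receptor (log2 fold change -0.92 ± 0.36, edgeR adjusted p = 0.16), to Lilra5 (-0.82 ± 0.53, 0.41) and to Siglech (-0.36 ± 0.13, 0.13). Of 20 tested other inhibitory receptors and their ligands, 3 fell and none rose: Lair1, a collagen receptor, fell from 462 ± 83.0 to 255 ± 49.6 CPM (-0.86 ± 0.17, edgeR adjusted p = 0.0070), Cd84 from 307 ± 61.1 to 179 ± 27.8 CPM (-0.78 ± 0.17, 0.017) and Havcr2, which encodes Tim-3, from 189 ± 38.3 to 108 ± 37.1 CPM (-0.81 ± 0.20, 0.031). Of 4 tested partners of the Sirpa and Cd47 system, Itgav, an integrin chain, fell (-0.79 ± 0.18, edgeR adjusted p = 0.022).

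Downstream of the receptors, 1 of 16 ITAM adaptors and kinases rose in myeloid libraries. This was Tyrobp, an ITAM adaptor of other receptors, which went from 187 ± 19.9 to 290.2 ± 36.5 CPM (0.64 ± 0.15, edgeR adjusted p = 0.022). Of 9 tested phosphatases and adaptors of inhibition motifs, Inppl1, a lipid phosphatase, rose from 108 ± 13.1 to 174 ± 55.3 CPM (0.70 ± 0.19, edgeR adjusted p = 0.048). DESeq2 called 1 gene of that list and limma-voom none. The list medians in myeloid libraries ran from -0.46 for paired receptors to 0.16 for these phosphatases and adaptors, beside -0.0021 over all genes.

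In astrocyte libraries Fcrls, an Fc receptor-like gene of microglia, rose from 1.11 ± 0.637 to 8.91 ± 5.01 CPM (2.98 ± 0.56, edgeR adjusted p = 0.031), 1 of 4 tested Fc receptors outside the members. Inpp5d, the lipid phosphatase recruited by Fcgr2b, rose from 3.24 ± 1.23 to 15.7 ± 9.85 CPM (2.28 ± 0.45, edgeR adjusted p = 0.043), 1 of 8 tested in its list. DESeq2 called 1 gene in the list of Fcrls and 2 in that of Inpp5d, and limma-voom called none in either, so both rises depend on the tool. The remaining lists had none called of 2, 4, 7 and 7 tested, with Mag, Thbs4, Cd274 and Pik3cd at the smallest p (edgeR adjusted p from 0.12 to 0.15). At an unadjusted p under 0.05, 2, 1, 4 and 1 of these passed, beside 2415 of all 14043 genes tested. In these lists DESeq2 called 0, 1, 1 and 1, and limma-voom called none. In neuron libraries none was called in any list, the smallest p belonging to Fcrls, Pilra, Siglech, Qpctl, Cd200, Plcg2 and Csk (edgeR adjusted p from 0.19 to 0.72). There 7 genes of these lists had an unadjusted p under 0.05, 4 of them ITAM adaptors and kinases, beside 3671 of all 16064 genes tested. Neither DESeq2 nor limma-voom called any gene of the lists.

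The genes most like each member in pattern were found as those with the smallest root mean square distance between log2 CPM profiles over the 6 group means, each centred on its own mean, among 9063 genes. The distances are a description over 6 points that share libraries. For Fcgr1 the nearest was Syk, the kinase that binds ITAMs, at a distance of 0.23, followed by Rgs10 and Lcp1. For Fcgr3 they were Tnfrsf1b, Gcnt1 and Ikzf1, for Fcer1g Mpeg1, Rassf4 and Anxa3, and for Fcgr2b Arhgdib, Ehd4 and Col6a3. Lilrb4a had no close match, its nearest being Sh3bp2 at 0.35, with Tent5c and Slc11a1 next. Il4ra and Lyn, the latter a kinase that phosphorylates inhibition motifs, were among the 3 nearest to Pirb, and Cd180, at 0.19, and Vsir among those nearest to Cd33. Cd22 was nearest to Ptpn6, the phosphatase recruited by such motifs, at 0.16, then Rassf4 and Pald1. Sirpa was nearest to Pfn1 at 0.09, Fuca1 and Gab2, and Cd47 to Eif2s3y at 0.05, a translation factor gene on chromosome Y, Zfp329 and Desi2. Mean Eif2s3y was 37.8 CPM in non-Tg and 27.7 in PS2APP myeloid libraries, 88.8 and 54.0 in astrocyte, and 71.6 and 40.4 in neuron libraries. The labels give no sex, so a difference in sex between the genotypes and the lower Cd47 means cannot be told apart. This was not tested.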

How the data were processed

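RNA sequencing libraries of 30 sorted samples were analysed, 5 in each of 6 groups of genotype and sorted population given by the labels. The authors deposited raw counts per gene of reads that align to one place, per the file headers, with RPKM values that the authors divided by gene length and a size factor. The submitters' processing notes name GSNAP and GRCm38; versions and annotation: not given in the sources used here. Of 36528 Entrez identifiers, 31049 had a symbol and held 96.7% of counts. All 60 pairs of replicates differed by more than sampling noise (chi-square of at least 4.09 per degree of freedom), and total counts of 2015535 to 6749681 set a floor, 3 counts, of 0.444 to 1.49 CPM.

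Counts were tested with edgeR 4.0.16 in R 4.3.3 (TMM scaling, filterByExpr, quasi-likelihood F test, Benjamini-Hochberg adjustment over all genes tested, threshold 0.05). Genotypes were compared within each population, and effects between populations and non-Tg populations in a fit of all libraries. SEs are the log2 fold change over the root of F, and 95% intervals are the normal range around it. Count ratios have exact binomial intervals (scipy 1.17.1). CPM values use the TMM scaling of the fit they belong to. RPKM was used only for levels between genes and ratios. The members and lists were chosen with earlier results of these data known. Named genes were the members, every context-list gene past the threshold within a population or else that of smallest p, the 3 nearest in pattern (pseudocount 0.5 CPM, mean log2 CPM of at least 3), the sort genes and Arhgap6; a few genes the rule names are not reported here. Alternatives were other scaling, no filter, a filter of 1 CPM in 5 libraries, DESeq2 1.42.0, limma-voom (limma 3.58.1), marker covariates, the fit of all libraries and leaving out libraries. The fits were tested on simulated data.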

Additional observations from a re-analysis of the deposited data

Results flagged for a closer look

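Single libraries that stood far from the other 4 of their group (gap over range above 0.71, Dixon's 95% value for 5 samples) were found in 7 of the 53 combinations of gene and group with more than 3 counts in a library. For normally distributed values chance gives about 1 in 20, or 2.65 here. Several of the combinations below hold counts near the floor, where that rate need not hold, so the 7 are not read as an excess. In myeloid libraries, non-Tg replicate 1 had the lowest Fcgr1 (62.4 CPM against 109.9 to 119), and non-Tg replicate 2 the highest Cd22 (44.8 CPM against 18.9 to 25.6). In non-Tg astrocyte libraries, Fcgr1 reached 1.30 CPM in replicate 4 (others up to 0.267) and Lilrb4a 1.03 CPM in replicate 2 (others up to 0.130). In PS2APP astrocyte libraries, Fcgr1 reached 1.43 CPM in replicate 4 (others up to 0.334), Fcer1g 6.02 CPM in replicate 2 (others up to 1.96) and Lilrb4a 5.77 CPM in replicate 3 (others up to 1.79), the library low in Arhgap6.

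Of the 10 members, Fcgr2b alone passed the test of a difference in PS2APP effect between populations, myeloid against astrocyte (edgeR adjusted p = 0.039). Fcgr2b was too low to be tested within astrocyte libraries and entered the fit of all libraries through its myeloid level, and the call rests on 2 counts in the 5 non-Tg and 18 in the 5 PS2APP astrocyte libraries. It was lost with DESeq2 size factors in edgeR (edgeR adjusted p = 0.054), without the 3 libraries low in Arhgap6 (0.10) and in 10 of 30 fits that left out 1 library.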

How the results depend on the processing

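No paired analysis was possible because the replicate numbers follow accession order and the labels tie no library to an animal. Between genotypes in myeloid libraries edgeR called 412 genes, against 939 without a filter on low counts, 887 with DESeq2, 168 with the neuron marker covariate, 798 in the fit of all libraries (309 higher and 489 lower, against 228 and 184), and 105 (without non-Tg replicate 4) to 652 (without non-Tg replicate 1) when 1 library was left out. In astrocyte libraries (26) these counts were 514, 327 (231 higher and 96 lower, against 26 and 0), 0 with the microglia marker covariate (1870 at an unadjusted p under 0.05), 295, and 8 (without non-Tg replicate 2) to 125 (without non-Tg replicate 1). In neuron libraries (1) they were 15, 143, 3094, 5, and 1 to 11 (11 without PS2APP replicate 5). Genes whose effect differed between myeloid and astrocyte libraries (137) numbered 213 without a filter, 382 with DESeq2 (224 higher and 158 lower, against 53 and 84) and 103 to 176 with 1 library left out; between myeloid and neuron libraries (19), 85 with DESeq2 and 12 to 27; and between astrocyte and neuron libraries (6), 16 with DESeq2, 3 without the 3 libraries low in Arhgap6 and 1 to 11. Log2 fold changes near 0 changed sign. In myeloid libraries Fcgr2b (-0.01) became 0.0038 with DESeq2 size factors in edgeR, 0.0050 with DESeq2 and 0.029 with the covariate, and ran from -0.17 to 0.10 with 1 library left out; Fcer1g (0.02) became -0.041 without a filter, -0.18 with the covariate, -0.065 in the fit of all libraries and -0.071 to 0.12; Sirpa (0.03) became -0.022 without a filter, -0.044 in the fit of all libraries and -0.0096 to 0.10; and Cd47 ran from -0.43 to 0.030. Sirpa in astrocyte libraries became 0.11 with the covariate and -0.10 to 0.017, and the Cd47 difference between astrocyte and neuron libraries ran from -0.28 to 0.082. The cause of these changes was not tested. Calls of Lilrb4a, Cd33, Cd47, Fcgr2b and Fcer1g that depend on a setting are given with their results. Apart from these and the sign changes above, the member comparisons summarised over the alternatives kept their direction and their side of the threshold. For non-Tg astrocyte against neuron libraries that summary covers only Cd33, Cd47 and Sirpa. For differences of the PS2APP effect it covers at most Cd33, Cd47 and Fcgr2b. Depth limits the receptors other than Sirpa outside the myeloid sort, where a library at the floor of 3 counts stands at 0.444 to 1.49 CPM.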
